A study of Rattus norvegicus with 28 samples.

Results

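Gene expression in samples exposed to injured spinal cord and labelled 3 weeks was set against that in samples exposed to injured cord and labelled 2 weeks, by RNA sequencing. The comparison used 7 of the series' 28 libraries, 3 of injured week 3 and 4 of injured week 2, all labelled as rat neural progenitor cells. The series has 7 groups of 4 libraries, with uninjured cord at the same weeks, injured and uninjured cord at 4 weeks, and cells kept in culture besides. Members were chosen by their exposure label, except that injured week 3 replicate 3 was left out because 2755 of the 9636 genes that each of its companions predicted at 20 or more counts read 0 in it, where the 7 libraries used had at most 2 such genes. The labels give no strain, age, promoter or reporter, and do not say from which event the weeks are counted, how the cells were recovered or whether libraries of a group came from separate animals. The spread behind each p-value is that between libraries, and it may be technical.

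Neural progenitor cells are dividing precursors that can give rise to neurons, astrocytes and oligodendrocytes, and they have been grafted into injured spinal cord in rodents as an experimental treatment. Injured cord passes in the weeks after a lesion through inflammation, loss of myelin and neurons, and the formation of a glial and fibrous scar. In bulk samples, fewer cells of a type and less RNA per cell cannot be told apart, and here RNA of surrounding cord cannot be told apart from that of the exposed cells. The deposited table names genes by rat Ensembl identifier only, and no identifier matched the gene names used here, so cell type markers could not be examined and neither the labelled cell type nor any pathway could be checked.

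Depth differed sharply between the weeks. Injured week 3 libraries held 3489857, 3439251 and 3147432 counts, against 84532, 354143, 446331 and 336170 counts in injured week 2 libraries. The uninjured week 2 libraries were shallow too, at 189626 to 426992 counts, so week and depth cannot be told apart in either condition. Week 3 libraries detected 15464 ± 153 genes (SD, n = 3) and week 2 libraries 10192 ± 1988 genes (SD, n = 4). With every library thinned at random to 84532 counts, the total of the shallowest, injured week 3 libraries detected 9413, 9498 and 9297 genes and injured week 2 libraries 7310, 8548, 9064 and 8632. The groups did not overlap, and the difference of 1014 genes had an exact permutation p of 0.0571 (two-sided), the smallest that 3 against 4 libraries can give. The 100 most abundant genes of each library took 36.0% ± 2.6 of the counts at week 3 (SD, n = 3) and 37.4% ± 1.4 at week 2 (SD, n = 4), groups that overlapped (exact permutation p = 0.514, two-sided).

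**Figure D1:**
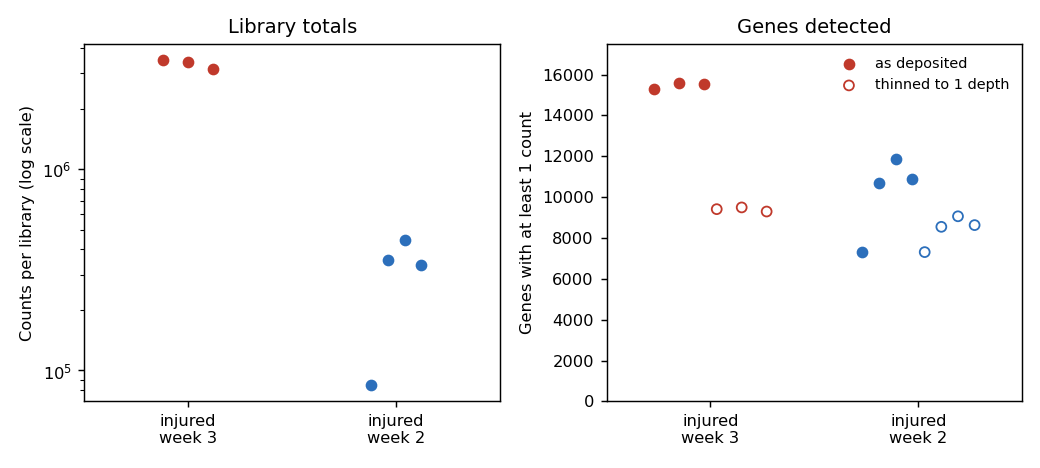
Library totals on a log axis (left) and genes with at least 1 count (right) for each of the 7 libraries of injured cord, with week 3 in red and week 2 in blue. Filled points are the counts as deposited and open points the same libraries thinned to 84532 counts, at which week 3 libraries still detect 9297 to 9498 genes and week 2 libraries 7310 to 9064.

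About 1 gene in 4 differed between the weeks in injured cord. Of 7451 genes tested, 1835 were called, a background of 24.6% (adjusted p under 0.05 by the Benjamini-Hochberg method, quasi-likelihood test of edgeR). Of these, 776 were higher at week 3 (10.4% of genes tested) and 1059 lower (14.2%). The changes were large. The genes that rose did so by a median of 2.65 on the log2 scale, and 540 of them at least 4-fold and 142 at least 16-fold. The genes that fell had a median log2 fold change 2.87 below 0, and 822 of them fell at least 4-fold and 270 at least 16-fold. All 3 week 3 libraries lay above all 4 week 2 libraries for 774 of the 776 genes that rose, and below them for 885 of the 1059 that fell. Over all genes tested the weeks did not overlap for 23.5% in the upward and 14.6% in the downward direction.

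Most calls were made again with week 3 thinned to the median depth of week 2. With each week 3 library thinned to 345156 counts, the median total at week 2, 1448 of 6569 genes were called (22.0%), 549 higher (8.36%) and 899 lower (13.7%) at week 3. Among the genes called at full depth, 546 of the 776 that rose were called higher after thinning, as were 867 of the 1059 that fell called lower, and none was called the other way in either list. The thinned counts are drawn from the same libraries, which favours such agreement in direction. Over 10 random thinnings the count ran from 1399 to 1448. Injured week 2 replicate 1 stayed shallower, at 84532 counts. With all 7 libraries thinned to that total, 741 of 1953 genes were called. In the main fit the low count filter asked for 22.4 CPM (counts scaled to a common library total) in at least 3 libraries, so a gene could enter through 1 week alone. The 2154 genes that entered through week 3 alone gave 481 of the rises, and the 1079 that entered through week 2 alone gave 683 of the falls, as their selection favours. The 3835 genes that passed in both weeks hold 295 that rose (7.69%) and 376 that fell (9.80%).

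Called genes were found at every level of expression. Genes were ordered by the mean of their week 3 and week 2 levels. Among the 134 genes with a mean of 500 CPM or more, 29 rose and 38 fell, which is 21.6% and 28.4%. Among the 2496 genes at 30 to 60 CPM, 147 rose and 253 fell, which is 5.89% and 10.1%. The 1696 genes under 30 CPM held 198 that rose and 205 that fell, which is 11.7% and 12.1%. A gene with so low a mean could pass the filter at 22.4 CPM through the 1 week in which it was high, which favours calls at this level. How many did so was not counted, so these shares are not an effect of level alone. At the extreme, 1.35% of the 7612 genes whose week 3 level predicted at least 20 counts over the week 2 libraries had counts in all 3 week 3 libraries and 0 counts in all 4 week 2 libraries. Among these genes, 97 (94.2%) had counts in all 4 culture libraries, against 99.8% of all 7612. Those with 0 counts in all 4 uninjured week 2 libraries as well were 25 (24.3%), against 0.841% of all 7612. In the opposite direction, 15 of the 7713 genes with at least 20 counts over the week 2 libraries (0.194%) had counts in every week 2 library and 0 in every week 3 library despite the greater depth at week 3. Of these 15 genes, 5 (33.3%) had counts in all culture libraries, against 98.4% of all 7713. A share of 6.67%, which is 1 gene, had 0 counts in all uninjured week 3 libraries, against 0.104% of all 7713.

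**Figure D2:**
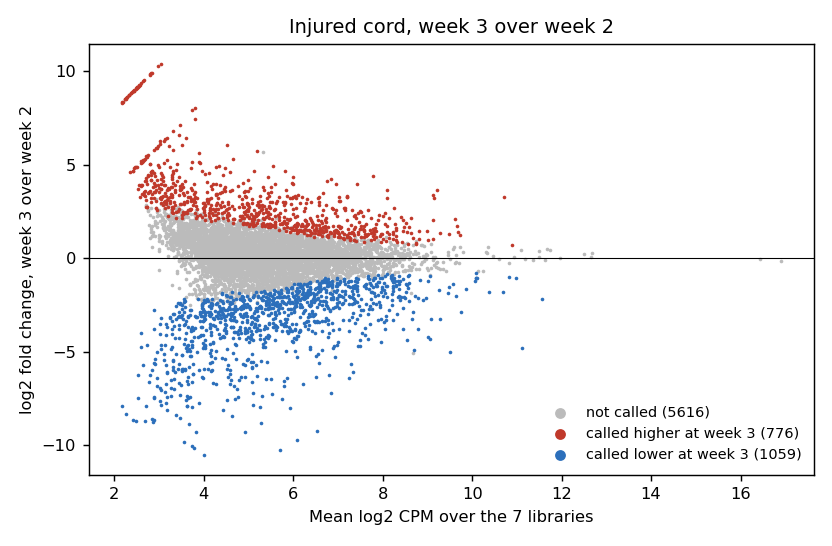
Each point is 1 of the 7451 genes tested in injured cord, with its mean log2 CPM over the 7 libraries (horizontal) and its log2 fold change of week 3 over week 2 (vertical). The 776 genes called higher (red) and 1059 called lower (blue) lie at all levels, and the straight red lines at low levels are genes with 0 or nearly 0 counts at week 2, whose fitted fold change depends on a small prior count.

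The 2 genes with the largest rises and the 2 with the largest falls were taken by rule among the 398 and 700 genes that were called in both tests, averaged at least 4 log2 CPM and did not overlap between the weeks. They are given by identifier with no function, because nothing used here annotates them. ENSRNOG00000017333 had 305, 332 and 390 CPM in injured week 3 libraries (1086, 1178 and 1295 counts), against 0, 2.49, 10.3 and 0 CPM in injured week 2 libraries (0, 1, 5 and 0 counts). Every week 3 library was thus far above every week 2 library, where 2 libraries held no count. Its log2 fold change of 6.08 ± 0.59 (SE) had an adjusted p of 7.99e-06 in edgeR, and it was 5.95 once week 3 was thinned. Injured week 2 replicate 3 held 5 of its 6 week 2 counts, and leaving it out gave a log2 fold change of 8.18. ENSRNOG00000012098 had 353, 356 and 415 CPM at injured week 3 and 7.31, 7.47, 8.20 and 0 CPM at injured week 2, from 8 counts in all. The libraries of each week lay close together but for the 1 week 2 library at 0, giving a log2 fold change of 5.75 ± 0.51 (SE, adjusted p = 4.24e-06 in edgeR), or 6.35 without injured week 2 replicate 3.

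ENSRNOG00000022386 was all but lost at week 3. It had 0.281, 0.282 and 0.904 CPM in injured week 3 libraries (1, 1 and 3 counts), against 431, 602, 599 and 567 CPM in injured week 2 libraries (59, 242, 292 and 212 counts). The shallow week 2 libraries thus held more counts of this gene than the deep week 3 libraries. Its log2 fold change of -10.27 ± 0.46 (SE) had an adjusted p of 1.29e-08 in edgeR. ENSRNOG00000059451 had 0 counts in all 3 injured week 3 libraries, against 73.13, 69.67, 120.99 and 96.33 CPM at injured week 2 (10, 28, 59 and 36 counts). Taking 3 counts over the 3 libraries as the floor, it was at least 313-fold lower at week 3 (adjusted p = 1.39e-05, edgeR).

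The same 4 genes were then read in the libraries that had no part in choosing them. ENSRNOG00000022386 was high in uninjured cord throughout, with 603 ± 226 CPM at week 2, 524 ± 189 CPM at week 3 and 565 ± 76 CPM at week 4 (SD, n = 4 each). It was at 14.3 ± 8.9 CPM in injured week 4 libraries and 83.0 ± 19.6 CPM in culture (SD, n = 4 each). ENSRNOG00000017333 had 1182 to 1428 CPM in the 4 injured week 4 libraries and 228 ± 49 CPM in culture. It was low in uninjured cord, with 21.0 ± 22.1 CPM at week 2, 1.81 ± 1.35 CPM at week 3 and 5.81 ± 6.26 CPM at week 4 (SD, n = 4 each). ENSRNOG00000012098 had 150 ± 29 CPM at injured week 4 and 102.7 ± 7.0 CPM in culture (SD, n = 4 each), and its highest uninjured library reached 18.7 CPM.

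ENSRNOG00000059451 was high at week 2 in both conditions. Uninjured week 3 libraries held 0 counts of it, against 36.1, 137, 14.3 and 49.8 CPM in uninjured week 2 libraries, at least 311-fold lower (edgeR adjusted p = 4.34e-08). All injured week 4 libraries were at 0, and the uninjured week 4 and culture groups held 2 and 3 counts in all. In the whole table, 14 of the 4488 genes with counts in every week 2 library of both conditions and at least 20 in all were at least 20-fold lower in each of the other 5 groups. Of these 14, 7 were among the 1059 genes that fell in injured cord and the other 7 were not tested there. Injured week 3 was among the groups that had to be lower, so these falls follow from the choice of genes. A mark of the week 2 libraries and a change over time cannot be told apart for the 14 genes.

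**Figure D3:**
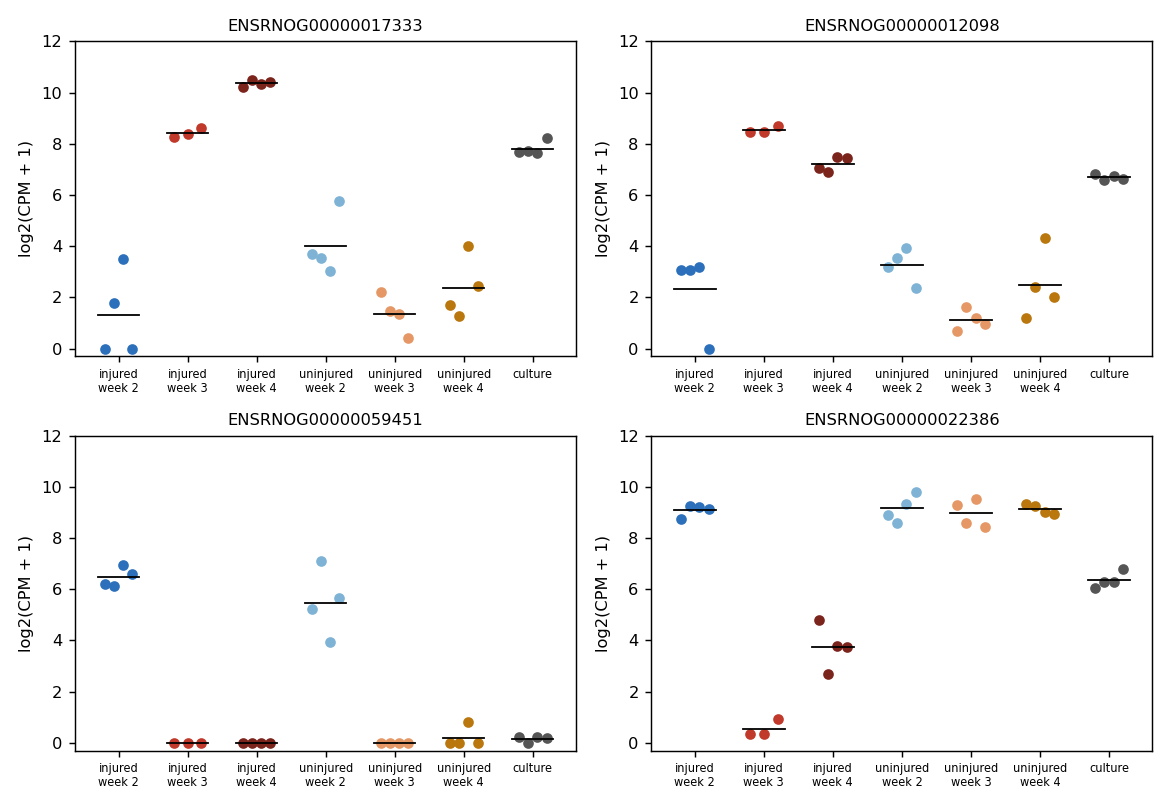
Level of the 4 genes in every library of the 7 groups, as log2(CPM + 1), with a line at each group's mean and no library of the incomplete injured week 3 replicate 3. ENSRNOG00000017333 and ENSRNOG00000012098 are high in injured weeks 3 and 4 and in culture, ENSRNOG00000022386 is low in injured weeks 3 and 4, and ENSRNOG00000059451 is high only in the week 2 libraries of both conditions.

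The called genes were also read as groups across all libraries. These levels are descriptions, since injured weeks 3 and 2 chose the genes. The 776 genes that rose took 16.5%, 16.3% and 18.6% of the counts of injured week 3 libraries, against 3.53%, 3.84%, 3.94% and 3.71% at injured week 2. They took 11.99% ± 0.33 in culture and 9.13% ± 1.33 at injured week 4 (SD, n = 4 each). In uninjured cord they took 4.24% ± 0.32, 4.54% ± 0.23 and 4.40% ± 0.32 at weeks 2, 3 and 4 (SD, n = 4 each). Every culture and injured week 4 library thus lay above every uninjured and injured week 2 library.

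The 1059 genes that fell took 5.07%, 4.86% and 4.84% of the counts at injured week 3, against 22.5%, 23.8%, 24.5% and 24.4% at injured week 2. In uninjured cord they took 20.78% ± 2.68, 26.97% ± 0.77 and 25.76% ± 1.31 at weeks 2, 3 and 4, and in culture 6.96% ± 0.70 (SD, n = 4 each). Injured week 4 lay between these, at 13.7% ± 1.4 (SD, n = 4). The median gene of this list had 14.2 CPM at injured week 3 and 97.6 CPM at injured week 2. Its levels elsewhere were 52.0 CPM at injured week 4, 20.5 CPM in culture and 92.2, 128.1 and 118.6 CPM in uninjured weeks 2, 3 and 4. The median gene that rose had 122.5 CPM at injured week 3 and 15.6 CPM at injured week 2, with 73.2 CPM at injured week 4, 75.8 CPM in culture and 24.9, 24.1 and 27.5 CPM in uninjured weeks 2, 3 and 4. The 5616 genes not called had a median of 51.1 CPM at injured week 3 and 36.7 CPM at injured week 2.

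**Figure D4:**
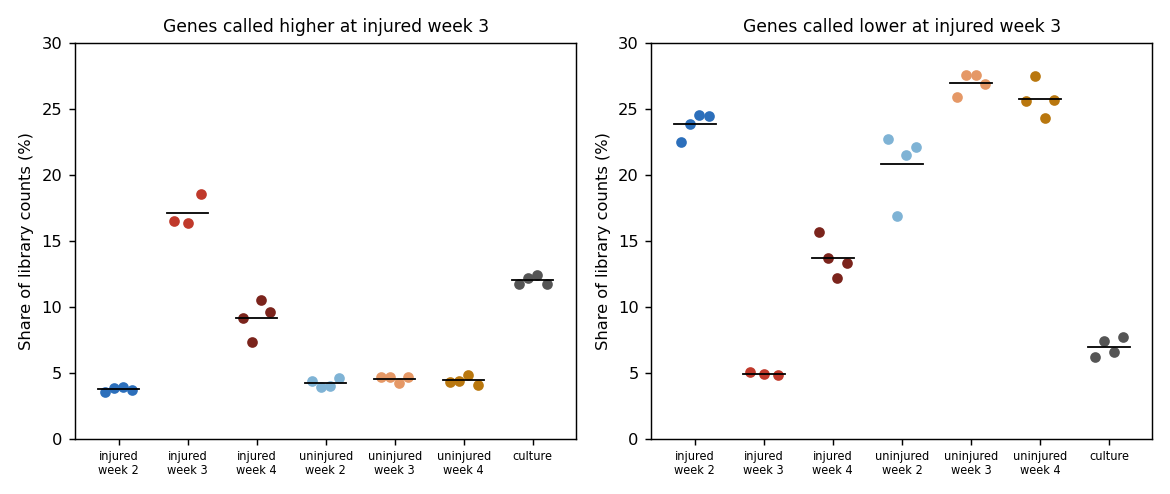
Share of each library's counts, in percent, taken by the 776 genes called higher (left) and the 1059 called lower (right) at injured week 3, with a line at each group's mean. Injured week 2 libraries lie close to the uninjured libraries in the left plot at 3.53% to 3.94% and within their range in the right plot at 22.5% to 24.5%, while injured week 3 libraries lie nearest to culture in the right plot.

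Whole profiles were compared at 84532 counts per library over 6597 genes. Injured week 3 libraries had a mean Spearman correlation across genes of 0.647 with culture, 0.555 with injured week 4, 0.298 with uninjured week 3 and 0.290 with injured week 2. Injured week 2 libraries had 0.581 with uninjured week 4, 0.562 with uninjured week 3, 0.540 with uninjured week 2 and 0.324 with culture. Within groups the mean was 0.771 at injured week 3 and 0.517 at injured week 2. These values share depth by construction, they are across genes, which are not independent replicates, and no p is attached. The spread between libraries was also smaller at injured week 3, with a biological coefficient of variation of 21.9% over 552 genes at this depth, against 34.4% over 532 genes at injured week 2. The injured week 3 value is from 3 libraries, with replicate 3 left out. The weeks had the same order in uninjured cord, at 26.6% over 625 genes at week 3 and 36.4% over 463 genes at week 2.

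The change between weeks in injured cord was tested against that in uninjured cord, which shares no library with it and was also far shallower at week 2. The gaps in depth were not equal, since uninjured week 3 libraries held 2886760 to 6824050 counts. The difference of the 2 changes passed the test for 2120 of 8800 genes, or 24.1% (edgeR adjusted p under 0.05, 15 libraries in 1 fit). The low count filter of this fit also let a gene enter through 1 group alone, which favours a called difference. How many of the 2120 entered so was not counted. The change was more positive in injured cord for 844 genes (9.59%) and more negative for 1276 (14.5%). The 844 genes had a median log2 fold change of 2.25 in injured and -1.21 in uninjured cord, and the 1276 genes -2.91 in injured and 0.41 in uninjured cord. These genes were chosen for a large difference of the 2 changes, which favours medians of opposite sign. The 776 genes that rose in injured cord, chosen without the uninjured libraries, had an uninjured median of -0.27, and the 1059 that fell one of 0.053. The injured change was the larger in size for 604 of the 844 and for 1192 of the 1276. This share was not computed over all 8800 genes. Over the genes tested in both conditions the median size of the change was also larger in injured cord, at 0.86 against 0.47, so a majority is no mark of the called genes. With week 3 libraries thinned to the week 2 median of their own condition, 1429 of 7435 genes passed the test of the difference (19.2%). The change was more positive in injured cord for 507 (6.82%) and more negative for 922 (12.4%).

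Fewer genes were called between the weeks in uninjured cord. In the fit of 15 libraries, 2725 of 8800 genes were called in injured cord (31.0%; 13.0% of genes higher and 18.0% lower at week 3), and in uninjured cord 485 of 8800 genes were called (5.51%), 1.43% of genes higher and 359 genes lower (4.08%) at week 3. With 27 libraries in 1 fit the balance in uninjured cord turned round, to 1743 genes higher and 1160 lower. After thinning, 211 of 7435 were called (2.84%), 63 higher (0.847%) and 148 lower (1.99%). Over the 7451 genes tested in both conditions the median absolute log2 fold change was 0.86 in injured and 0.47 in uninjured cord. All 7451 had passed the low count filter in injured cord, 2154 of them through week 3 alone and 1079 through week 2 alone. That choice favours a larger change in injured cord, and the values of the conditions come from different fits. Its share in the gap between the medians was not tested. The fold changes of the conditions were all but unrelated across the 7451 genes (Pearson r = -0.070, Spearman rho = -0.084). Of the genes tested in both, 5 were called higher in both, which is 0.644% of the 776 injured rises and 4.39% of the uninjured ones. Those called lower in both were 51, or 4.82% of the 1059 injured falls and 18.1% of the 281 uninjured ones. Another 90 were higher in injured and lower in uninjured cord, 11.6% and 32.03% of those lists, and 68 were lower in injured and higher in uninjured cord, 6.42% and 59.6%. As background, 1.53% of all 7451 genes were called higher and 3.77% lower in uninjured cord, and 10.4% higher and 14.2% lower in injured cord. With the 8 uninjured libraries fitted alone, the 4 overlaps in this order were 5, 47, 46 and 83 genes of 7134. The lists then held 593 rises and 1048 falls in injured cord, and 155 rises and 207 falls in uninjured cord. The overlaps were 0.843%, 4.48%, 7.76% and 7.92% of the injured lists, and 3.23%, 22.7%, 22.2% and 53.5% of the uninjured ones.

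**Figure D5:**
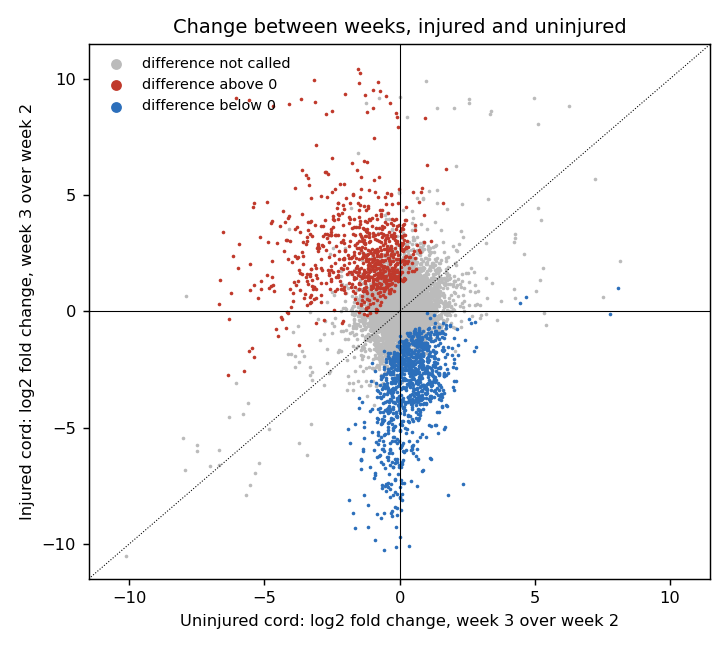
Log2 fold change of week 3 over week 2 in injured cord (vertical) against that in uninjured cord (horizontal) for the 7451 genes tested in both, with the dotted line where they are equal. Colours mark the 1787 of these genes whose change differed between the conditions, and the points spread mainly along the vertical axis, with a Pearson r of -0.070. The genes were chosen by the low count filter in injured cord, which favours spread along that axis.

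The size of the count and the balance of its directions rest on the libraries and genes in the fit. Without injured week 3 replicates 1, 2 or 4 in turn the count was 1191, 1098 and 1060, and without injured week 2 replicate 1, the shallowest, it was 2946 of 10782 genes tested. Falls outnumbered rises in the main and thinned fits and whenever the same 7451 genes were tested without 1 library. Rises outnumbered falls with limma voom (1294 and 1249), with a filter of at least 10 counts in 3 libraries of a week (1221 and 948), with all 27 usable libraries in 1 fit (3532 and 2854), and without any 1 of the week 2 libraries when the genes were chosen anew.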

How the data were processed

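The authors deposited raw, unscaled counts of reads for each gene in 28 libraries. Trizol extraction, DNase treatment and a stranded total RNA kit for small inputs were used, per the labels' protocols. Tools named, with no role, in the submitters' processing notes are featureCounts 1.5.1, StringTie 1.3.3, STAR 2.5.1, Picard, Trim Galore 0.4.1 and FastQC 0.11.5. The notes also name the mouse build GRCm38, while the table's identifiers are rat ones. The alignment genome, annotation, strand setting and duplicate removal are not given, and counts of near-identical or overlapping genes are uncertain. Counts carry no molecular identifiers, and floors cover counting error only.

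The table holds 32545 genes, 6584 of them at 0 in every library. None of its identifiers (0) was found in the RefSeq gene table of GRCr8. The 36 gene lists drawn up by symbol, the symbol condition of the naming rule and the alternative without mitochondrial, ribosomal and haemoglobin genes were therefore not run, and no sequence is shown. The naming rule took the largest log2 fold changes each way among genes called at full and thinned depth, with a mean of at least 4 log2 CPM (prior count 2) and no overlap between weeks. The comparison, members and lists were chosen with earlier results of these data known.

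The main test on the 7 libraries was the robust quasi-likelihood F test of edgeR 4.0.16 (R 4.3.3), after filterByExpr by group and with TMM factors, adjusted over 7451 genes. Standard errors are the log2 fold change divided by the square root of F. The uninjured change and the difference between conditions came from 1 fit of 15 libraries. CPM values of the 4 genes and of the lists of called genes use TMM factors over 27 libraries, as does the choice of the 14 genes of week 2. The overlap between weeks, the levels that ordered the genes and the mean log2 CPM use the TMM factors of the 7 libraries. The filter's CPM limit uses library totals alone. Thinning drew counts without replacement. Replicate pairs within a week differed by more than sampling noise (chi-square per degree of freedom 6.94 to 12.8). Alternatives were DESeq2 1.42.0, limma 3.58.1, other factors, filters and sets of libraries, and leaving out each library. Replicates were numbered in deposition order, which pairs no samples.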

Additional observations from a re-analysis of the deposited data

Results flagged for a closer look

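The change between weeks differed between injured and uninjured cord for 2120 genes (edgeR adjusted p under 0.05). Genes could enter that fit through 1 group alone, which favours such calls. The 4 genes given by identifier were chosen for a large change in injured cord. That change is part of each difference, so their choice favours large differences and small p-values. Among the 4 genes given by identifier, the difference of the 2 changes for ENSRNOG00000017333 was 9.78 ± 1.002 in log2 units (SE; adjusted p = 1.71e-09, edgeR), or 11.60 without injured week 2 replicate 3. This gene fell in uninjured cord by 3.63, with 1.81 ± 1.35 CPM at week 3 and 21.0 ± 22.1 CPM at week 2 (SD, n = 4 each, edgeR adjusted p = 0.000471). Without uninjured week 2 replicate 4, which stood apart at 54.0 CPM, that fall had an adjusted p of 0.0597, and over the other alternatives it kept its call. For ENSRNOG00000012098 the difference was 9.22 ± 0.97 (SE; adjusted p = 3.17e-09, edgeR), and for ENSRNOG00000022386 it was -9.66 ± 0.60 (SE; adjusted p = 3.26e-14, edgeR). ENSRNOG00000059451 was at 0 in both week 3 groups, so its difference is not given.

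In 5 of 42 groups of 4 libraries examined, 1 library lay far from the other 3 by the ratio of Dixon. About 2.1 such groups would come by chance if all groups held independent values of normal spread. Some groups hold counts at or near 0, and groups of 1 gene or list are related, so 2.1 is only a rough guide. The ratio was 0.945 for the share of counts of the genes that rose in uninjured week 3, where replicate 3 had 4.19% and the others 4.65% to 4.68%. It was 0.892 for ENSRNOG00000012098 at injured week 2, where replicate 4 had 0 counts. For ENSRNOG00000017333 it was 0.896 at uninjured week 2 and 0.886 in culture, where replicate 4 had 301 CPM and the others 198 to 209. For ENSRNOG00000059451 at uninjured week 4 it was 1, set by 3 libraries at 0 and 1 with 2 counts.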

How the results depend on the processing

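For injured week 3 against week 2, 17 of 28 alternatives stayed within 1.5 times the main count of 1835. It was 741 of 1953 genes with all libraries thinned to the lowest total, 3495 of 18938 with no low count filter, 1180 of 10498 with injured week 3 replicate 3 kept, and 6386 of 14282 with 27 libraries in 1 fit. Leaving out 1 library gave 1060 to 2946, and with the same genes kept 1150, 1099 and 1050 without week 3 replicates 1, 2 and 4. Leaving out a week 2 library raises the median library total and so lowers the filter's CPM limit, and with the same genes kept the count without week 2 replicate 1 was 2282. The median log2 fold change over all genes was 0.19 with TMM, 0.28 with RLE and 0.30 with upper quartile factors, and rises made up 42.3%, 46.6% and 47.4% of calls. The thinned count of 1448 was 1432 with RLE factors and 1672 with DESeq2. The difference between conditions moved past 1.5 times only with 27 libraries in 1 fit, to 4340, and ran from 1733 to 2908 without 1 library. The uninjured count of 485 was 2903 with 27 libraries, 211 thinned, 237 thinned with RLE factors, 927 with DESeq2, 2267 without a filter, 289 without uninjured week 3 replicate 4, 294 without uninjured week 3 replicate 2 and 902 to 1045 without an injured week 2 library, and ran from 289 to 1045 over all such fits. The causes were not tested beyond the genes and libraries fitted. None of the 4 genes reversed or lost its call in injured cord in the alternatives that tested it. RLE factors and DESeq2 on thinned counts, the 8 uninjured libraries alone and the fits with the same genes kept were chosen after the data were seen. The filter at 22.4 CPM, and not a limit of the tests, set which genes entered, and the thin week 2 counts limit the precision of low genes. No paired analysis was possible because the labels carry no replicate numbers.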
